A study of Rattus norvegicus with 6 samples.

Results

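Cholesterol synthesis and its control by the SREBP transcription factors were followed across 26 genes, which were chosen by name: 20 enzymes, from Acat2 at the entry of the pathway to Dhcr7 at its end, with the side-branch enzyme gene Ggps1, and 6 genes of SREBP control and sterol transport. The deposited count table of 16876 gene symbols held all 26, and all 26 passed the filter on low counts, with between 104 and 18774 counts per library. The libraries came from rat (Rattus norvegicus) cells labelled as primary cultured microglia, which were shaken loose from mixed co-cultures. Of the 6 libraries, 3 are from cells given PSNPs (polystyrene nanoplastics) for 24 h and 3 from cells given the near-infrared dye IR-813 for the same time. The study asked what changes in microglia underlie effects of PSNPs on behaviour and neuronal activity. Both groups received an agent and no untreated library is part of the comparison. A gene that "rose" was higher in the PSNPs libraries than in the IR-813 libraries, and the effects of the 2 agents on it cannot be told apart.

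Cells build cholesterol from acetyl-CoA. The mevalonate steps make isoprene units, squalene is assembled from them and closed to lanosterol, and a series of reductions, demethylations and isomerisations turns lanosterol into cholesterol. The SREBP proteins are held in the endoplasmic reticulum by SCAP and the INSIG proteins while sterols are plentiful. When sterols run low, SCAP carries SREBP to the Golgi, where 2 proteases release the part that activates genes of sterol and fatty acid synthesis. The brain makes its own cholesterol, and glial cells, oligodendrocytes with their myelin above all, are major producers.

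Of the 26 genes, 11 rose and 0 fell with PSNPs, and 15 did not pass the test (quasi-likelihood test of edgeR, Benjamini-Hochberg adjusted over 11679 genes, adjusted p under 0.05). Over all tested genes 20.9% rose and 20.1% fell, against 42.3% and 0% of the pathway genes. Counting both directions together, the pathway was called about as often as the background, where 41.0% of genes passed. The changes were small. Only Tm7sf2 rose more than 2-fold, as did 4.67% of all tested genes, and the median log2 fold change of the 26 genes was 0.31, against −0.01 over all tested genes. Estimates were above 0 for 21 genes and below 0 for 5. In 15 genes (57.7%) every PSNPs library lay above every IR-813 library, which was so for 30.0% of all tested genes, and in 0 genes did they all lie below, against 31.4%. Summed over the 20 enzymes, the level was 2372, 2410 and 2710 CPM (counts scaled by TMM to the usual common library size) in the IR-813 libraries and 3167, 3309 and 3246 CPM in the PSNPs libraries, a ratio of 1.30 between the means. The groups did not overlap in this sum. Without Hmgcs1 and Cyp51 the sum ran from 1409 to 1552 CPM with IR-813 and from 1843 to 2053 CPM with PSNPs.

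**Figure D1:**
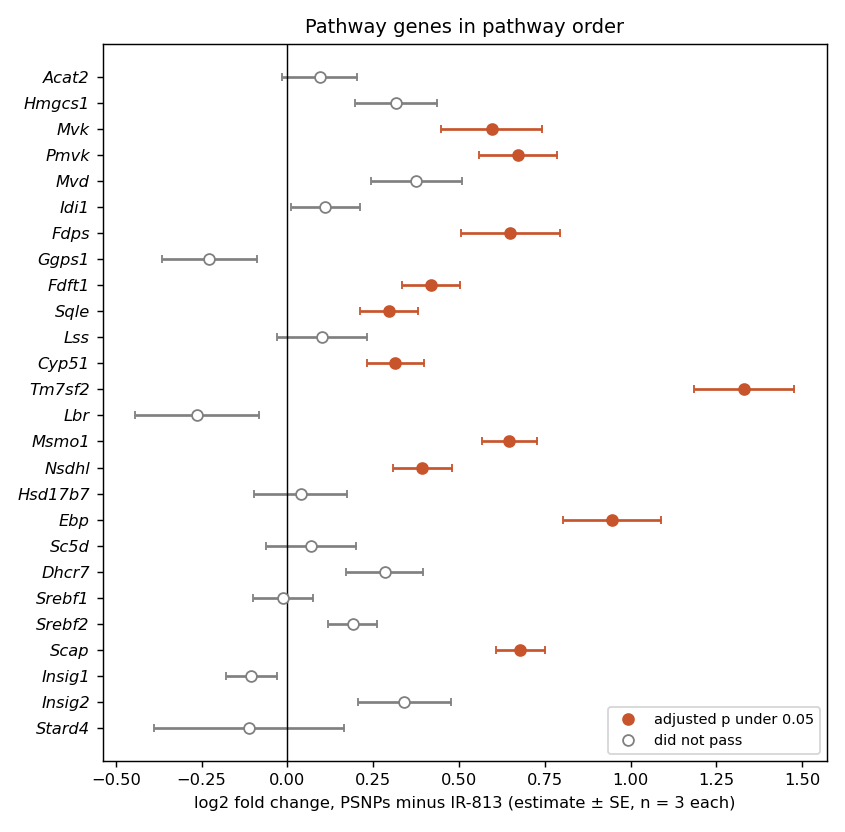
Log2 fold change of each of the 26 genes in pathway order (x axis, PSNPs minus IR-813, estimate ± SE, 3 libraries each), filled where the adjusted p was under 0.05. The 11 filled points all lie to the right of 0, from Sqle at 0.30 to Tm7sf2 at 1.33, and the lowest open point is Lbr at −0.26.

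The count of genes that rose depended on single libraries. Leaving out IR-813 replicate 1 left 6 of them, leaving out IR-813 replicate 2 left 5, and the fit that omitted PSNPs replicate 3 gave 17, with 0 genes that fell in each case. The shares of all tested genes that rose were then 12%, 11.4% and 30.4%. PSNPs replicate 3 stood apart from PSNPs replicates 1 and 2 (correlation of log CPM across genes 0.974 and 0.971, against 0.995 between those 2). Across 11520 genes, its log CPM minus the mean of the other 2 went down with a proxy for transcript length (Spearman rho −0.56), which is a description, since genes share the libraries and are not independent. The fold change itself had a rho of −0.31 with the proxy across the same genes. Of the 14 pathway genes with a proxy below the median of tested genes 8 rose, where 27.9% of all such tested genes rose, and of the 12 longer ones 3 rose, where 14.3% of the longer tested genes did. With an offset for the proxy in the fit, chosen after seeing the data, 16 rose and 0 fell, and all 11 were among them, while 29.0% of all tested genes rose in that fit. That offset shifted the median of all tested genes from −0.01 to 0.09, and the median of the 26 genes to 0.37. Calls over all genes were 2439 higher and 2351 lower (50.9% higher), and 62.7% higher with the length offset. With library size as the only scaling, 40.5% of all calls were higher and 9 pathway genes rose.

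**Figure D2:**
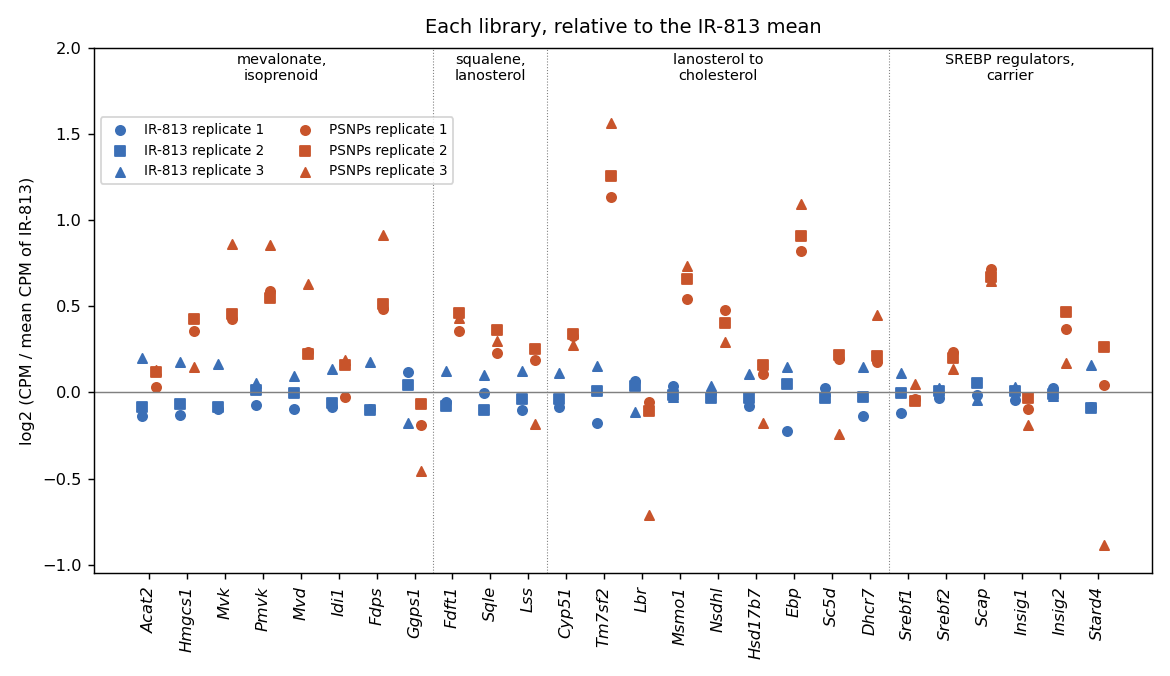
Level of each of the 26 genes in each library as log2 of its CPM over the mean CPM of the IR-813 libraries (y axis), in pathway order (x axis), with 1 marker shape per replicate number. PSNPs replicate 3 (triangles) is the highest of the 6 libraries for Tm7sf2 (68.2 CPM), Fdps (387 CPM) and Mvk (68.8 CPM), and the lowest for Lbr (16.4 CPM), Sc5d (67.6 CPM) and Stard4 (7.04 CPM).

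The cells carried markers of several glial types. The highest CPM in their lists were those of Gfap for astrocytes, Mbp for oligodendrocytes and Csf1r for microglia (Gfap 2950 ± 545 and 3411 ± 243 CPM with IR-813 and PSNPs, mean ± SD, n = 3; Mbp 2090 ± 174 and 1562 ± 184 CPM), and the defining microglia gene Aif1 stood at 50.4 ± 10.8 and 21.4 ± 4.66 CPM. The 16 oligodendrocyte-lineage markers summed to between 7751 and 8995 CPM with IR-813 and between 4727 and 5423 CPM with PSNPs, with 15 lower and 1 higher. The 10 microglia markers summed to between 955 and 1279 CPM and between 558 and 731 CPM, with 8 lower and 0 higher. The 10 astrocyte markers summed to between 6787 and 8620 CPM and between 8070 and 9039 CPM, with 5 higher and 1 lower. The 12 neuron markers summed to between 386 and 400.0 CPM and between 165 and 198 CPM (7 lower, 0 higher of 10 tested), and the 12 fibroblast, pericyte and endothelial markers to between 110.0 and 145 CPM and between 72.6 and 95.5 CPM (3 lower, 1 higher of 7 tested), with Col1a2 at 0 counts in all 6 libraries. Cspg4, which fell from 35.2 ± 2.63 to 12.9 ± 1.60 CPM, is counted in both this last list and the oligodendrocyte-lineage list. These lists also differed between the groups. In the astrocyte list more genes rose than fell, and in each of the other lists more genes fell than rose. The part of the lists in the pathway results was not tested. In these bulk libraries fewer cells of a type and less RNA per cell cannot be told apart.

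The start regions of the genes were read for shared sequence. SREBP proteins are known to act on genes of this pathway together with NF-Y, a factor that binds CCAAT boxes. RefSeq promoter entries (build GRCr8, 250 bases before to 50 after the annotated start) matched 22 of the 26 genes by symbol, all but Pmvk, Fdft1, Sqle and Stard4. For Srebf1, with 2 entries, the first was read. The 150 bases before the start, 5′ to 3′ on the gene's strand, are given for the gene with the largest increase (Tm7sf2), for 3 other enzyme genes that rose (Ebp, Msmo1 and Fdps), and for Scap, which rose and has no CCAAT. Capitals mark CCAAT or its reverse complement ATTGG.
Tm7sf2, chr1:212789542-212789691, minus strand: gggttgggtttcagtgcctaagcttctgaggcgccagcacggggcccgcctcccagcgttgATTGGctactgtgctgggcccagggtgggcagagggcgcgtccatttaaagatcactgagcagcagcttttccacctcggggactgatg
Ebp, chrX:16971312-16971461, plus strand: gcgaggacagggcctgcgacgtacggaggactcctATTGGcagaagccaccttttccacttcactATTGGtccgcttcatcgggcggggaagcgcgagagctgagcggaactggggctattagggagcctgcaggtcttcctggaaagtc
Msmo1, chr16:29746963-29747112, plus strand: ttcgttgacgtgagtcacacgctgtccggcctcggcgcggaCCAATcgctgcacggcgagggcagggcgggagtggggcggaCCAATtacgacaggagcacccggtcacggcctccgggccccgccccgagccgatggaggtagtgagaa
Fdps, chr2:176804817-176804966, minus strand: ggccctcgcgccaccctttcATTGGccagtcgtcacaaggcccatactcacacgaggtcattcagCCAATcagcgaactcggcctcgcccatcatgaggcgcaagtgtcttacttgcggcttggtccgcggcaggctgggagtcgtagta
Scap, chr8:119184288-119184437, plus strand: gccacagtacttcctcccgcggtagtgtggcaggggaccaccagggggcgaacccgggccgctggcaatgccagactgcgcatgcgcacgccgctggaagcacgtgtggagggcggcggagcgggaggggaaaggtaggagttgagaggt
In these stretches Tm7sf2 holds 1 CCAAT box, Ebp 2, Msmo1 2 and Fdps 2. Over the whole entries, CCAAT on either strand was found in 18 of the 22 genes (81.8%), against 37.3% of the 8867 tested genes with an entry, and at least 2 matches in 11 of the 22, against 13.4% of tested genes. It was held by 6 of the 8 genes that rose and by 12 of the 14 that did not pass. Acat2, Cyp51, Dhcr7 and Scap held none. A GC box (GGGCGG on either strand, which can share its end letters with a CCAAT box) was found in 81.8% of the 22 genes and in 62.8% of tested genes. The E-box CACGTG, a palindrome, was found in Sc5d, Scap and Insig1 (13.6%, against 9.11% of tested genes). A sterol regulatory element spelled TCACNCCAC was found in 0 of the 22 genes and 1.16% of tested genes, and the shorter spelling CACNCCAC, which the longer one contains, in Acat2, Ebp and Insig1 (13.6%, against 5.90%). Both strands were searched. A match or its absence describes only these letters in this window.

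Of the 8 genes of the mevalonate and isoprenoid steps, 3 rose, against 20.9% of all tested genes. The other 5 did not pass, and the median log2 fold change was 0.35. Pmvk, phosphomevalonate kinase, was at 24.3, 25.8 and 26.6 CPM with IR-813 and at 38.4, 37.4 and 46.3 CPM with PSNPs. All PSNPs libraries were higher than all IR-813 libraries, and the log2 fold change was 0.67 ± 0.11 (estimate ± SE, adjusted p = 0.00402). Pmvk passed in each of 15 alternatives, between 0.49 and 0.73. Mvk, mevalonate kinase, which acts just before it, was at 35.4, 35.7 and 42.4 CPM and at 50.9, 51.9 and 68.8 CPM (0.59 ± 0.15, adjusted p = 0.0176). The groups did not overlap, and PSNPs replicate 3 was the highest. Fdps, which makes farnesyl diphosphate, was at 192, 192 and 232 CPM with IR-813 and at 287, 293 and 387 CPM with PSNPs (0.65 ± 0.14, adjusted p = 0.0113), again with PSNPs replicate 3 on top. Omitting IR-813 replicate 1 ended the calls for Mvk and Fdps (edgeR adjusted p = 0.0742 and 0.0529), as did omitting IR-813 replicate 2 (0.0767 and 0.0553).

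Hmgcs1, which makes HMG-CoA, was at 616, 644 and 760.3 CPM with IR-813 and at 863, 905 and 747 CPM with PSNPs. PSNPs replicate 3 fell inside the IR-813 range, and the difference of 0.32 ± 0.12 did not pass (adjusted p = 0.0704). When PSNPs replicate 3 was omitted it was 0.39 with an edgeR adjusted p of 0.00679, when IR-813 replicate 3 was omitted 0.41 (0.0468), with the length offset 0.56 (0.00218), and by DESeq2 0.32 (0.0473). Mvd, mevalonate diphosphate decarboxylase, was at 53.8, 57.4 and 61.3 CPM and at 67.7, 67.1 and 89.0 CPM. Its groups did not overlap, yet the test was not passed (0.37 ± 0.13, adjusted p = 0.0585). The value for Mvd was 0.23 without PSNPs replicate 3 (edgeR adjusted p = 0.0171), and with the length offset it was 0.35 (0.0458). Acat2, which condenses acetyl-CoA in the cytosol, was at 0.09 ± 0.11, Idi1, the isomerase of isoprene units, at 0.11 ± 0.10, and Ggps1, which makes geranylgeranyl diphosphate for protein prenylation, at −0.23 ± 0.14. These 3 did not pass in any alternative.

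Both squalene enzymes rose and lanosterol synthase did not pass, where 20.9% of all tested genes rose. Fdft1, squalene synthase, the first enzyme committed to sterols, was at 117, 115 and 132 CPM with IR-813 and at 155, 166 and 164 CPM with PSNPs, with no overlap (0.42 ± 0.09, adjusted p = 0.00834). Sqle, squalene epoxidase, was at 124, 116 and 134 CPM and at 146, 160.4 and 154 CPM (0.30 ± 0.08, adjusted p = 0.0289). The call for Fdft1 was lost without IR-813 replicate 2 (edgeR adjusted p = 0.0544). That for Sqle did not hold if IR-813 replicate 1 (0.101) or 2 (0.140) or PSNPs replicate 1 (0.0517) or 2 (0.0802) was left out, or with library size only (0.0882). Lss, lanosterol synthase, stood at 101, 106 and 119 CPM with IR-813 and at 124, 130 and 95.9 CPM with PSNPs, so that PSNPs replicate 3 was the lowest of the 6 libraries. The difference for Lss was 0.10 ± 0.13 (adjusted p = 0.569), 0.22 without PSNPs replicate 3 (edgeR adjusted p = 0.0304) and 0.27 with the length offset (0.0418).

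Of the 9 genes from lanosterol to cholesterol, 5 rose, against 20.9% of all tested genes, and 4 did not pass. Tm7sf2, a sterol C14-reductase, had the largest increase of the 26 genes, at 20.4, 23.1 and 25.6 CPM with IR-813 and at 50.7, 55.1 and 68.2 CPM with PSNPs. The lowest PSNPs library was well above the highest IR-813 library. The fold was 2.52 (log2 1.33 ± 0.15, adjusted p = 0.000752), larger in size than that of 91.3% of tested genes. Lbr encodes the other protein with sterol C14-reductase activity, which also anchors the nuclear lamina, and went the other way in value, at 28.2, 27.6 and 24.9 CPM and at 25.9, 24.9 and 16.4 CPM. Its groups overlapped and it did not pass (−0.26 ± 0.18, adjusted p = 0.275), and without PSNPs replicate 3 it was at −0.08. The ratio of Tm7sf2 to Lbr on the deposited scale, which divides by a gene factor akin to length, was 0.811, 0.940 and 1.16 with IR-813 and 2.20, 2.48 and 4.66 with PSNPs. On that scale the 2 reductase transcripts were near parity with IR-813, and Tm7sf2 was the more abundant in all 3 PSNPs libraries.

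Ebp, the sterol isomerase that also binds many small drugs, was at 7.92, 9.59 and 10.3 CPM with IR-813 and at 16.4, 17.4 and 19.8 CPM with PSNPs (1.92-fold, log2 0.94 ± 0.14, adjusted p = 0.00266). Msmo1, the monooxygenase of the C4 demethylation, was at 282, 272 and 270.2 CPM and at 400.0, 433 and 457 CPM (0.65 ± 0.08, adjusted p = 0.00122). Neither gene had overlapping groups. Tm7sf2, Ebp and Msmo1 passed in all 15 alternatives, with lowest values of 1.16, 0.80 and 0.57. Nsdhl, the dehydrogenase of the same demethylation, was at 47.0, 46.0 and 48.2 CPM with IR-813 and at 65.6, 62.2 and 57.7 CPM with PSNPs (0.39 ± 0.09, adjusted p = 0.0113). Cyp51, the lanosterol 14-demethylase, was at 347, 358 and 398 CPM and at 460.4, 464 and 445 CPM (0.31 ± 0.08, adjusted p = 0.0215). Groups did not overlap for these 2 genes, but their calls were less steady. Nsdhl lost its call on omitting IR-813 replicate 1 or 2 (edgeR adjusted p = 0.0547 and 0.0686). Cyp51 failed to pass on omitting IR-813 replicate 1 or 2 (0.0987 and 0.109) or PSNPs replicate 1 or 2 (0.0664 and 0.0575), and with library size only (0.0637).

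The other 3 late enzymes did not pass. Dhcr7, the final reductase of cholesterol synthesis, was at 85.8, 92.5 and 104 CPM with IR-813 and at 106, 109 and 128 CPM with PSNPs. The groups were adjacent without overlap, with a difference of 0.28 ± 0.11 (adjusted p = 0.0830), which passed with the length offset (0.45, edgeR adjusted p = 0.0291). Sc5d, the sterol C5-desaturase, was at 81.4, 78.4 and 80.4 CPM and at 91.4, 93.0 and 67.6 CPM. PSNPs replicates 1 and 2 lay above and PSNPs replicate 3 below all IR-813 libraries. The value for Sc5d was 0.07 ± 0.13 (adjusted p = 0.692), or 0.21 without PSNPs replicate 3 (edgeR adjusted p = 0.00622). Hsd17b7, the ketosteroid reductase of the C4 demethylation, was at 0.04 ± 0.14 and did not pass in any alternative.

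**Figure D3:**
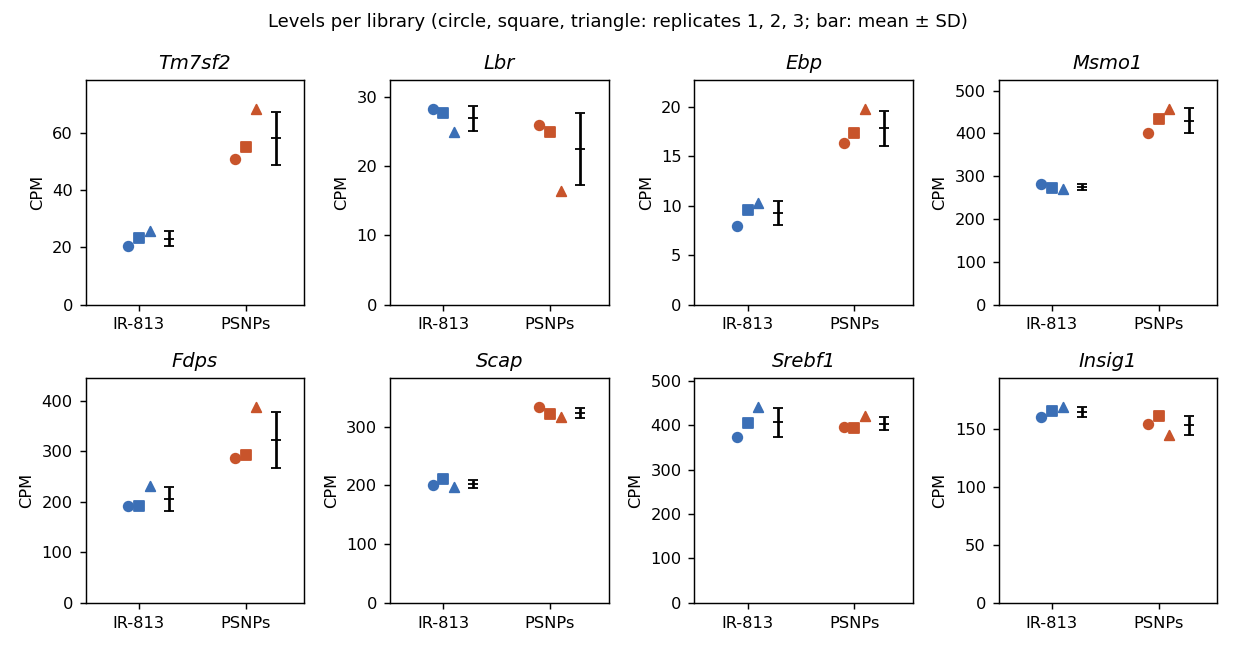
CPM (y axis) of 8 genes in each IR-813 and PSNPs library, with the mean ± SD beside each group of 3. Tm7sf2, Ebp, Msmo1, Fdps and Scap show no overlap between groups, whereas Lbr, Srebf1 and Insig1 overlap.

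Among the genes of SREBP control, 1 of 6 rose and 5 did not pass, where 20.9% of all tested genes rose. Scap, the sterol-sensing escort of SREBP, was at 199.9, 210.4 and 197 CPM with IR-813 and at 333, 322 and 316 CPM with PSNPs. The spread within each group was small beside the gap between them, and Scap had the smallest p of the 26 genes (1.60-fold, log2 0.68 ± 0.07, adjusted p = 0.000627). It passed in all 15 alternatives, and was at 0.70 without PSNPs replicate 3 and at 1.04 with the length offset. The genes of the escorted factors differed less. Srebf1 was at 374, 406 and 439.6 CPM and at 396, 393 and 419.9 CPM, with the PSNPs libraries inside the IR-813 range (−0.01 ± 0.09, adjusted p = 0.915). The value for Srebf1 was 0.36 with the length offset (edgeR adjusted p = 0.0903), and 0.16 (0.0917) when PSNPs replicate 3 was also omitted. Srebf2, whose product mainly drives the sterol genes, was at 261, 267 and 271 CPM and at 313, 306 and 292 CPM. The Srebf2 groups did not overlap, but the difference of 0.19 ± 0.07 did not pass (adjusted p = 0.0673). It passed without PSNPs replicate 3 (0.22, edgeR adjusted p = 0.00371) and with the length offset (0.61, 0.00640).

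Insig1, an SREBP target and retention factor, was at 160.0, 166 and 168 CPM with IR-813 and at 154, 161 and 144 CPM with PSNPs. The groups overlapped and the value was −0.10 ± 0.08 (adjusted p = 0.296). Insig2, its close relative, was at 4.97, 4.84 and 4.81 CPM and at 6.30, 6.74 and 5.48 CPM. Its groups did not overlap, and the difference of 0.34 ± 0.14 did not pass (adjusted p = 0.0827), but passed without PSNPs replicate 3 (0.42, edgeR adjusted p = 0.0182) and by limma on the deposited log2 values (0.32, 0.0386). The ratio of Insig1 to Insig2 on the deposited scale was 8.09 ± 0.323 with IR-813 and 5.94 ± 0.251 with PSNPs (SD, n = 3 each), without overlap. The ratio of Scap to Insig1 on that scale was 0.672 ± 0.0302 and 1.16 ± 0.0554, also without overlap. The size of both ratios depends on the gene factor of that scale. In CPM, Scap (202 ± 7.24) already stood above Insig1 (165 ± 4.28) with IR-813. For a single ratio per library the smallest p of an exact 2-sided permutation test of 3 against 3 is 0.1, so none was run. Stard4, a cytosolic sterol carrier, was at 12.3, 12.2 and 14.5 CPM and at 13.4, 15.6 and 7.04 CPM. PSNPs replicate 3 alone was low, and the value was −0.11 ± 0.28 (adjusted p = 0.767), or 0.16 without that library.

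Levels between genes were compared on the deposited scale. Hmgcs1 (208 ± 23.3), Fdps (180.5 ± 20.2) and Msmo1 (172 ± 4.14) headed the order with IR-813, with overlapping ranges between Hmgcs1 and Fdps and between Fdps and Msmo1. Cyp51 (124 ± 8.85) and Srebf1 (94.6 ± 7.52) followed. With PSNPs the order at the top was Fdps (286 ± 56.9), Msmo1 (271 ± 23.3), Hmgcs1 (260.5 ± 21.0) and Cyp51 (155 ± 0.942), and the top 3 did not differ beyond their spread. The lowest 3 were Insig2 (8.70 ± 0.132), Hsd17b7 (6.52 ± 0.434) and Stard4 (4.97 ± 0.490) with IR-813. Tm7sf2 moved from rank 21 of the 26 genes to rank 14, and Pmvk from rank 17 to rank 11.

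Genes around the pathway, from lists of known function, did not share 1 direction. The counts of each list stand beside 20.9% of all tested genes that rose and 20.1% that fell. Of 19 tested genes of SREBP processing and sterol-regulated degradation, 3 rose, 1 fell and the median was −0.02. Mbtps1, the first of the proteases that cut SREBP, rose from 144 ± 7.34 to 223 ± 25.8 CPM (0.63 ± 0.10). Tmem97, a sterol-responsive membrane protein, rose by 0.77 ± 0.14 and Rnf145, a ubiquitin ligase, by 0.33 ± 0.09 on the log2 scale, while Erlin1, a regulator of SREBP retention, fell by 0.65 ± 0.11. Rnf145 was not called on omitting IR-813 replicate 1 or 2 (edgeR adjusted p = 0.0895 and 0.102) or PSNPs replicate 1 or 2 (0.0708 and 0.0614), or with library size only (0.0577).

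Of 17 genes of fatty acid synthesis under SREBP control, 3 rose and 2 fell, and the median was −0.03. Thrsp, a regulator of lipogenesis, rose from 4.86 ± 1.37 to 13.2 ± 0.903 CPM (1.44 ± 0.21), the desaturase gene Fads1 from 479 ± 41.5 to 696 ± 19.8 CPM (0.54 ± 0.09) and the malic enzyme gene Me1 from 236 ± 7.66 to 330.4 ± 15.2 CPM (0.49 ± 0.07). Acsl3, an acyl-CoA synthetase of lipid droplets, fell by 0.60 ± 0.08 on the log2 scale. Of 12 genes of LXR signalling and cholesterol efflux, 2 rose and 2 fell. Mylip, a ubiquitin ligase for lipoprotein receptors, fell from 18.5 ± 1.25 to 10.5 ± 0.586 CPM (−0.82 ± 0.11). The efflux transporter gene Abcg1 fell by 0.45 ± 0.15, while the LXR alpha gene Nr1h3 rose by 0.65 ± 0.19 and the phospholipid-remodelling gene Lpcat3 by 0.34 ± 0.08. Abcg1 did not pass when IR-813 replicate 1, 2 or 3 was left out (edgeR adjusted p = 0.0514, 0.134 and 0.150), without PSNPs replicate 2 (0.118) or with the length offset (−0.17, 0.380). Nr1h3 and Lpcat3 were not called if IR-813 replicate 1 (0.112 and 0.0736), IR-813 replicate 2 (0.126 and 0.0755) or PSNPs replicate 1 (0.0892 and 0.0557) was omitted.

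Of 18 genes of cholesterol uptake, lysosomal export and esterification, 5 rose and 4 fell. Vldlr, a receptor for lipoproteins and reelin, was at 66.4, 64.4 and 61.3 CPM with IR-813 and at 17.4, 21.9 and 14.3 CPM with PSNPs. The log2 fold change of −1.84 ± 0.16 (edgeR adjusted p = 0.000307) was larger than any change among the 26 pathway genes, and the groups were far apart. The lysosomal acid lipase gene Lipa rose by 0.51 ± 0.09 and the lecithin-cholesterol acyltransferase gene Lcat by 0.69 ± 0.12, while the sterol-transfer gene Osbpl5 fell by 0.64 ± 0.09. Osbpl5 did not pass with the length offset (−0.31, edgeR adjusted p = 0.0534). Of 7 tested genes of oxysterol and bile acid synthesis, 4 rose and 0 fell, with a median of 0.50. Hsd3b7, which acts on hydroxylated sterols, rose from 14.3 ± 1.82 to 36.8 ± 3.73 CPM (1.36 ± 0.13) and Cyp7b1, the oxysterol hydroxylase, from 44.7 ± 6.03 to 83.0 ± 10.0 CPM (0.89 ± 0.14). Cyp39a1, another oxysterol hydroxylase, rose by 0.81 ± 0.15 and the racemase gene Amacr by 0.50 ± 0.13, but Amacr was not called if IR-813 replicate 1 or 2 (edgeR adjusted p = 0.0733 and 0.0913) or PSNPs replicate 1 (0.0547) was left out. Of 15 genes that use isoprenoids, 1 rose and 1 fell: Dolk, dolichol kinase (0.61 ± 0.11), and Rabggtb, a subunit of the Rab prenyltransferase (−0.53 ± 0.10).

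**Figure D4:**
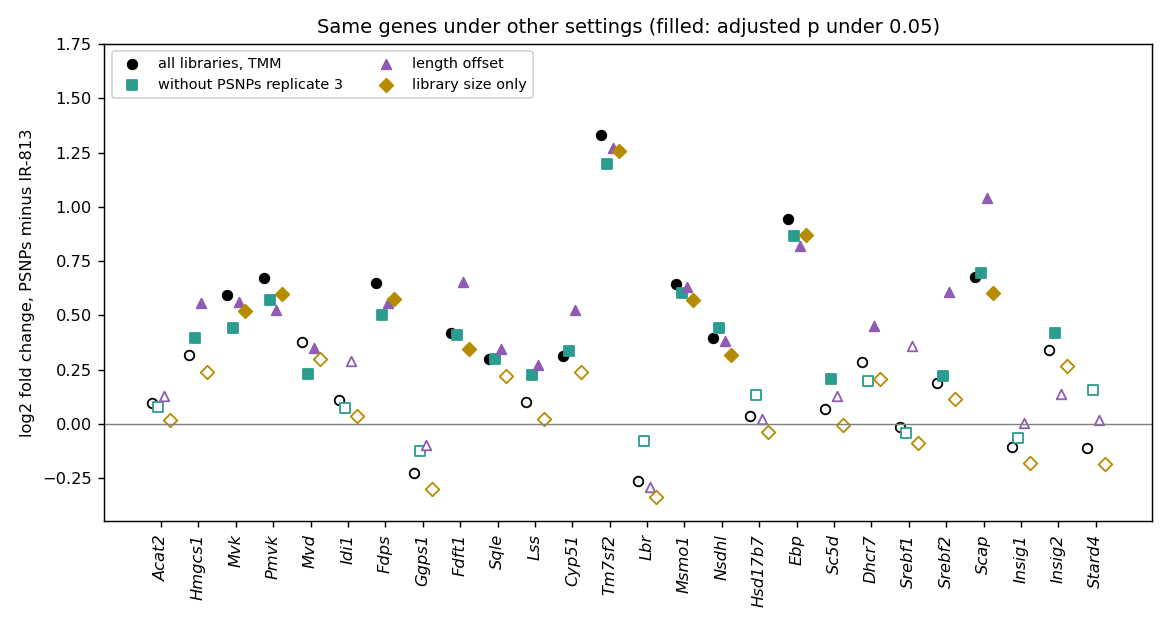
Log2 fold change of the 26 genes (y axis, PSNPs minus IR-813) for all libraries, for 5 libraries (PSNPs replicate 3 omitted), for the length offset and for scaling by library size alone, filled where the adjusted p was under 0.05. Tm7sf2, Ebp, Msmo1, Pmvk, Scap, Mvk, Fdps, Fdft1 and Nsdhl are filled under all 4, and the filled points all lie above 0.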

How the data were processed

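The authors deposited a table of raw counts (whole numbers, 1 row per gene symbol) for 6 libraries, with totals from 19166605 to 22553507, and a file of log2 values for each library. The labels do not say how the latter were scaled. Per the submitters' processing notes, bcl2fastq and the build mRatBN7.2 were used. Aligner, annotation and strand use: not given in the sources used here, so reads shared with overlapping or similar genes are uncertain. Groups and replicate numbers come from the sample titles. Columns named con belong to the IR-813 samples through their per-library files, and no source says whether con means another control. No label says that replicates came from separate cultures. The p-values therefore reflect only how much these samples vary, possibly for technical reasons.

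Genes passing filterByExpr (11679) were scaled by TMM and fitted in edgeR 4.0.16 under R 4.3.3 (glmQLFit, glmQLFTest, treatment as the only term), with Benjamini-Hochberg adjustment over all genes and calls at adjusted p under 0.05. The test was also run on simulated counts with few changed genes, no length trend and no outlying library. That check therefore does not cover these features of the data. SE is the log2 fold change over the square root of F. Alternatives used DESeq2 1.42.0 and limma 3.58.1. The deposited log2 values, unlogged with a pseudocount of 1 removed, equalled the count times 1 factor per gene and 1 per library within 0.05 log2 units, for at least 98.7% of values in each library (counts of at least 20). The gene factor served as the proxy for length and was there for all 26 genes. Every pathway gene is described, and of each surrounding list at most the 4 genes with the smallest p are named. Genes and lists were chosen with earlier results of these data known. Genes of the lists absent from the table under any synonym were not analysed here.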

Additional observations from a re-analysis of the deposited data

How the results depend on the processing

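Across 15 alternatives, 5 genes (Pmvk, Tm7sf2, Msmo1, Ebp and Scap) passed each time, 8 of the other genes never passed, and no pathway gene fell in any of them. Leaving out each library in turn gave between 5 and 17 pathway genes that rose, with a median log2 fold change between 0.26 and 0.36, and between 1339 and 3591 genes that rose and 1473 and 3478 that fell over the whole table. The median of the pathway genes was 0.23 with library size only and 0.37 with the length offset. The length offset without PSNPs replicate 3 gave 17 pathway genes that rose, with a median of 0.33, and 4098 genes over the whole table. DESeq2 gave 12 pathway genes. Same-numbered libraries had correlations of their deviations from the group means of −0.01, 0.01 and 0.12. Those with different numbers ran from −0.17 to 0.18. With 3 libraries per group these values cannot decide whether the numbers pair the samples. No label states a pairing, and the main fit used none. With the replicate number as a block 9 pathway genes rose (2035 higher and 2124 lower over all genes), and Cyp51 (edgeR adjusted p = 0.0571) and Sqle (0.0660) were lost. The pathway genes had at least 104 counts per library.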
